A study of Homo sapiens with 8 samples.

Results

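Enzymes of the tricarboxylic acid (TCA) cycle, of the entry of pyruvate and glutamate into it, and of the shuttles that carry the electrons of cytosolic NADH into mitochondria were compared between 4 tumors from mice given nicotinamide mononucleotide (NMN) and 4 tumors from mice given vehicle. The set holds 36 genes, listed by name, of the 18164 genes in the table, and was chosen with earlier results of these data known. All 36 were found, and all 36 were among the 13358 genes with enough signal to be tested.

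The NMN group was given 500 mg/kg/day of NMN, from which cells make NAD+, and the other group is labelled Vehicle. In both, the tumors had grown from HCC1937, a widely used human cell line of triple-negative breast cancer, implanted in the inguinal mammary fat pad of NCG mice (NOD/ShiLtJGpt-Prkdcem26Cd52Il2rgem26Cd22/Gpt), an immunodeficient strain without mature lymphocytes, and treatment began at tumor volumes of 100 to 150 mm3. The age of the mice, the composition of the vehicle and whether each tumor came from a different mouse are not stated in the labels, so the p-values reflect only the spread among the 8 samples, which may be technical. All tumors were grown from a single cell line. The values are of RNA from whole tumors, whose share of host tissue is unknown.

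The TCA cycle oxidises acetyl-CoA in the mitochondrial matrix and passes the electrons to NAD+ and FAD. NAD+ accepts them at the pyruvate, isocitrate, 2-oxoglutarate and malate dehydrogenases, and the respiratory chain returns it to the oxidised form. NADH made in the cytosol does not cross the inner mitochondrial membrane, so its electrons enter through the malate-aspartate shuttle or through the glycerol phosphate shuttle. Tumor cells also use the cycle to supply citrate for lipid synthesis and aspartate for nucleotides, and refill it from glutamate and pyruvate.

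Levels are in TPM, which is scaled per gene length and to the same total in every library, so levels of different genes can be set side by side. Depth is unknown. Genes above 0 numbered 16451 to 16662 per library. The tumor epithelial markers, keratins among them, summed to 11200 to 14200 TPM with NMN and 10400 to 18800 TPM with Vehicle. Of the receptors that define the triple-negative class, PGR was at 0 to 0.02 TPM over the 8 tumors and ESR1 at 3.37 to 6 TPM, whereas ERBB2 was at 77.6 to 130.03 TPM. The 20 skeletal muscle markers summed to 98, 99.6, 102 and 729 TPM in NMN 1 to NMN 4, against 965, 772, 2830 and 487 TPM in Vehicle 1 to Vehicle 4, with PVALB at 0 in every tumor. NMN 1, NMN 2 and NMN 3 lay below all other tumors in 18 of these 20 genes. Besides PVALB the exception was MB, which went the other way. It was at 44.27, 65.8 and 52.85 TPM in NMN 1 to NMN 3, and at 12.21 to 32.66 TPM in the other tumors. MB thus made up much of the muscle sums of NMN 1 to NMN 3. The 9 fibroblast markers summed to 121, 132, 167 and 237 TPM in NMN 1 to NMN 4. In Vehicle 1 to Vehicle 4 the sums were 192, 216, 278 and 291 TPM. NMN 1 to NMN 3 again had the lowest sums, but lay below all other tumors in only 3 of the 9 genes. These were COL1A1, COL1A2 and COL3A1. Most of each sum came from collagen genes, and the fibroblast markers DCN and LUM were at 0 to 0.05 TPM. The summed levels of the other marker lists were 5.93 to 8.07 TPM with NMN and 4.23 to 6.75 TPM with Vehicle for endothelium, 51.4 to 92.2 and 54.3 to 78.6 TPM for myeloid cells, and 40.3 to 253 and 33.5 to 133 TPM for adipocytes. In whole tumors, fewer cells of a type and less RNA per cell cannot be told apart, and the sources used here do not say how mouse reads were handled.

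Together the 36 genes made up 0.318%, 0.32%, 0.312% and 0.368% of all TPM in NMN 1 to NMN 4, and 0.346%, 0.325%, 0.343% and 0.322% in Vehicle 1 to Vehicle 4. The groups overlapped, with NMN 4 the highest of the 8 tumors and the other 3 NMN tumors the lowest. By mean level over the 8 tumors, the mitochondrial NADP-dependent isocitrate dehydrogenase gene IDH2 was the highest at 278 TPM, and the mitochondrial malic enzyme gene ME2 the lowest at 1.73 TPM.

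**Figure D1:**
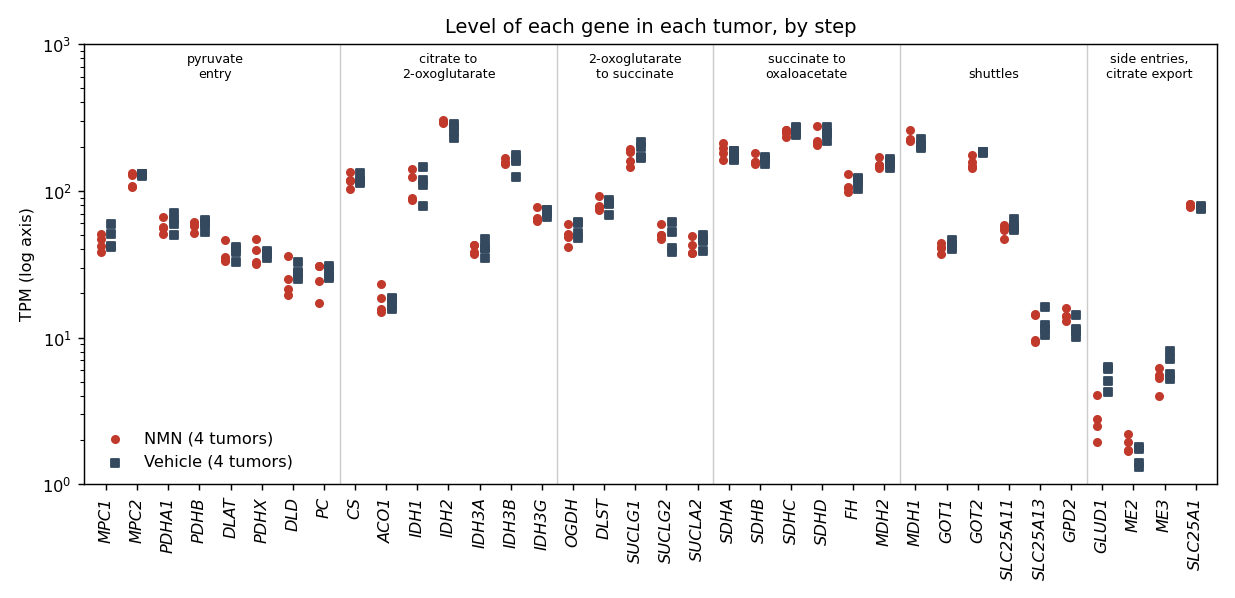
TPM of each of the 36 genes on a log axis, in the 4 NMN tumors (red circles) and the 4 Vehicle tumors (dark squares), grouped by step. Levels differ far more between genes than between the groups, from ME2 at a mean of 1.73 TPM to IDH2 at 278 TPM.

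None of the 36 genes passed the comparison of NMN with Vehicle tumors (limma on log2(TPM + 1), Benjamini-Hochberg adjusted p under 0.05 over all tested genes). Among all tested genes 0 of 13358 genes passed, or 0%, and the members' adjusted p-values ran from 0.305 to 0.998. At an unadjusted p under 0.05 stood 3 members, IDH2, which was higher with NMN, and GOT2 and GLUD1, which were lower. The background is 927 of all tested genes, or 6.94%, with 4.79% higher and 2.15% lower. With weights that count deviating libraries less, 6 members (IDH2, GPD2, GOT2, ME3, MPC2 and GLUD1) stood there, against 11.2% of all tested genes. IDH2, GOT2 and GLUD1 were also the 3 members whose NMN and Vehicle values did not overlap (3.05% of all tested genes), against 2.08% of all tested genes with all NMN values higher and 0.966% with all NMN values lower. The mean was higher with NMN in 11 members and lower in 25 (median log2 fold change -0.045), whereas 49% of all tested genes were lower and their median was 0.004.

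The fold changes of the set were small. In 35 of 36 members (97.2%) the estimate lay within 1.3-fold of no difference, compared with 91.2% of all tested genes and 93.2% of those with a mean of at least 5 TPM. The exception was GLUD1. In 34 of 36 members (94.4%) the whole 95% interval lay within 1.5-fold, compared with 72.6% of all tested genes and 79.4% of those of at least 5 TPM, and the exceptions were GLUD1 and ME3. The median coefficient of variation between tumors was 11.2% in the NMN group and 9.05% in the Vehicle group for the members, and 14.4% and 15.7% for all tested genes. Most members stood above the median tested gene, which was at 17.1 to 20.6 TPM per tumor. The part of expression level in these differences from the background was not tested.

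**Figure D2:**
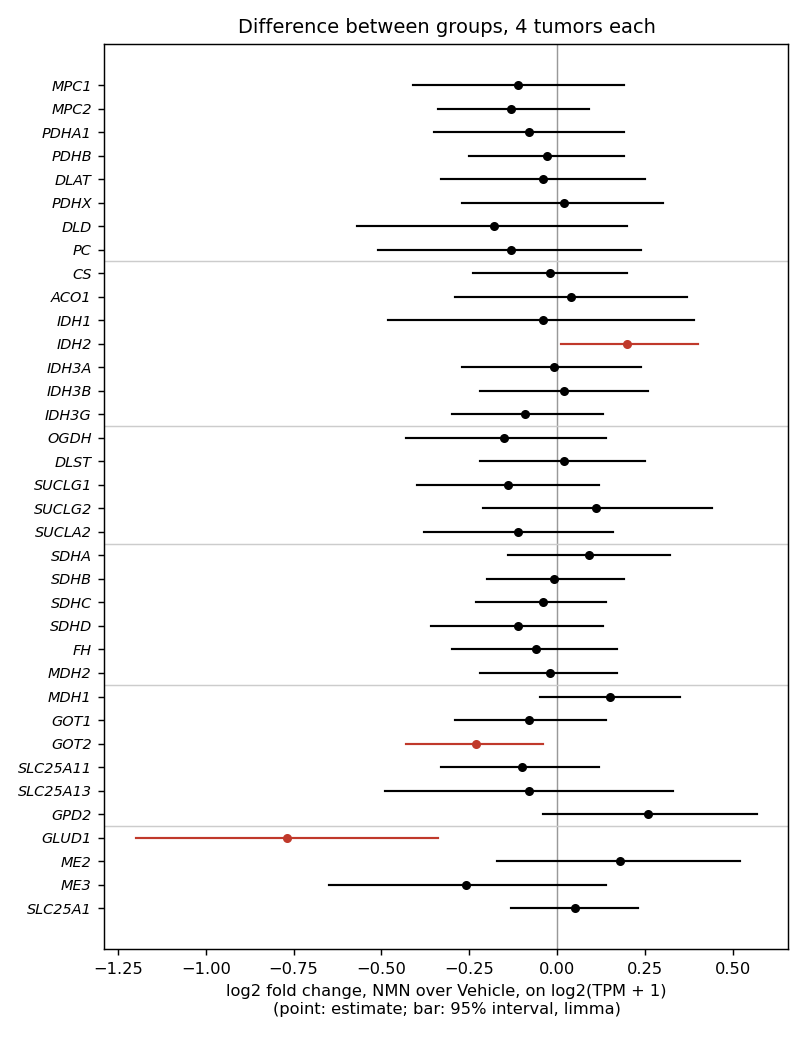
Log2 fold change of each gene, NMN over Vehicle, from log2(TPM + 1), with its 95% interval from limma (4 tumors per group), and grey lines between the steps. The 3 genes in red, IDH2, GOT2 and GLUD1, are those whose groups do not overlap, and none passed after adjustment.

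Pyruvate enters through the mitochondrial pyruvate carrier, MPC1 and MPC2, and is turned into acetyl-CoA by the pyruvate dehydrogenase complex or into oxaloacetate by pyruvate carboxylase (PC). Of these 8 genes 1 was higher and 7 were lower on average with NMN (median log2 fold change -0.096), and none passed. MPC2 was at 108, 128, 105 and 132 TPM in NMN 1 to NMN 4, against 130, 126, 130 and 129 TPM in Vehicle 1 to Vehicle 4. On the TPM scale NMN 2 lay within the narrow Vehicle range, NMN 1 and NMN 3 below it and NMN 4 above it. After median-of-ratios scaling the SD of the Vehicle group was 6.68, against 1.91 TPM as deposited. Its log2 fold change was -0.13 ± 0.10 (SE, adjusted p = 0.905 by limma). MPC1 averaged 44.5 ± 5.46 TPM with NMN and 48.4 ± 8.35 TPM with Vehicle (SD, n = 4 each, as for all means below). MPC2 exceeded MPC1 in 8 of 8 tumors, by 2.19 to 3.05 times.

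In the pyruvate dehydrogenase complex, PDHA1 and PDHB encode the E1 subunits that decarboxylate pyruvate. PDHA1 averaged 57.4 ± 6.23 TPM with NMN and 60.9 ± 8.69 TPM with Vehicle, and PDHB 57.9 ± 4.40 and 58.99 ± 4.72 TPM. DLAT, the E2 acetyltransferase, averaged 37.2 ± 6.30 TPM with NMN and 38.2 ± 4.01 TPM with Vehicle. PDHX, which tethers E3 to the E2 core, averaged 37.9 ± 7.11 TPM with NMN and 37.0 ± 1.59 TPM with Vehicle. DLD, the E3 subunit that hands the electrons to NAD+ and serves several dehydrogenases, averaged 25.4 ± 7.34 TPM with NMN and 28.3 ± 3.30 TPM with Vehicle, a log2 fold change of -0.18 ± 0.18 (adjusted p = 0.944). The order of levels was the same in 8 of 8 tumors, with both E1 genes above DLAT and PDHX and those above DLD. PC averaged 25.8 ± 6.43 TPM with NMN and 27.8 ± 2.35 TPM with Vehicle, and NMN 2 held the lowest value at 17.3 TPM.

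From citrate to 2-oxoglutarate, 3 genes were higher and 4 lower on average (median log2 fold change -0.015). IDH2, which reduces NADP+ in the matrix and is known for the gain-of-function mutations that make 2-hydroxyglutarate, lies on chromosome 15, 90083045 to 90102504 on the minus strand (GENCODE 29, GRCh38). It was at 290.2, 296, 306 and 297 TPM in NMN 1 to NMN 4, against 250.2, 285, 272 and 228 TPM in Vehicle 1 to Vehicle 4. Every NMN tumor was above every Vehicle tumor. The log2 fold change was 0.20 ± 0.09 (95% interval 0.01 to 0.40, p = 0.0429 and adjusted p = 0.695 by limma, p = 0.0286 by exact two-sided permutation, the smallest that 4 against 4 allow). After median-of-ratios scaling of the libraries, IDH2 was at 269.9 to 321 with NMN and 233 to 309 with Vehicle, so that the groups overlapped.

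IDH1, the cytosolic counterpart, averaged 110.1 ± 26.8 TPM with NMN and 114 ± 27.5 TPM with Vehicle and spread from 79.4 to 146 TPM. The log2 ratio of IDH1 over IDH2 was -1.47 ± 0.35 with NMN and -1.22 ± 0.32 with Vehicle. Citrate synthase (CS), which starts the cycle, averaged 118 ± 12.9 TPM with NMN and 119 ± 8.73 TPM with Vehicle. ACO1, the cytosolic aconitase and iron regulatory protein, averaged 17.995 ± 3.70 TPM with NMN and 17.2 ± 1.46 TPM with Vehicle. The NAD+-dependent isocitrate dehydrogenase is built from the catalytic subunit IDH3A and the subunits IDH3B and IDH3G. IDH3B averaged 158 ± 7.59 TPM with NMN and 157 ± 22.1 TPM with Vehicle, IDH3G 67.3 ± 6.75 and 71.4 ± 3.99 TPM, and IDH3A 40.2 ± 2.95 and 40.8 ± 5.03 TPM. That order, with the catalytic subunit lowest, held in 8 of 8 tumors, and IDH3B exceeded IDH3A by 2.66 to 4.59 times.

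From 2-oxoglutarate to succinate, 2 genes were higher and 3 lower on average (median log2 fold change -0.111). OGDH, the E1 subunit of the 2-oxoglutarate dehydrogenase complex, averaged 49.99 ± 7.27 TPM with NMN and 55.4 ± 6.77 TPM with Vehicle, and its E2 subunit DLST 80.7 ± 8.43 and 79.7 ± 7.62 TPM. SUCLG1, the alpha subunit shared by both succinyl-CoA ligases, was at 161, 185, 145 and 192 TPM in NMN 1 to NMN 4, against 200.2, 215, 168 and 170.2 TPM in Vehicle 1 to Vehicle 4. The ranges overlapped over most of their length, and the log2 fold change was -0.14 ± 0.12 (adjusted p = 0.921). SUCLG2, the beta subunit that makes GTP, averaged 51.5 ± 5.40 TPM with NMN and 48.1 ± 10.7 TPM with Vehicle. SUCLA2, the beta subunit that makes ATP, averaged 41.97 ± 5.44 TPM with NMN and 45.3 ± 4.74 TPM with Vehicle. SUCLG1 exceeded each beta subunit in 8 of 8 tumors, by 2.92 to 5.28 times for SUCLG2 and 3.40 to 4.74 times for SUCLA2. SUCLG2 exceeded SUCLA2 in 6 of 8, the exceptions being Vehicle 2 and Vehicle 4.

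From succinate to oxaloacetate, 1 gene was higher and 5 lower on average (median log2 fold change -0.035). Succinate dehydrogenase, which is also complex II of the respiratory chain, takes the flavoprotein SDHA, the iron-sulfur protein SDHB and the membrane anchors SDHC and SDHD. SDHA averaged 187 ± 21.4 TPM with NMN and 175 ± 13.96 TPM with Vehicle, and SDHB 162 ± 12.6 and 162 ± 7.01 TPM. SDHC averaged 249 ± 13.4 TPM with NMN and 257 ± 15.3 TPM with Vehicle. SDHD was at 218, 212, 207 and 278 TPM in NMN 1 to NMN 4, against 271, 219.8, 246 and 249 TPM in Vehicle 1 to Vehicle 4. NMN 1, NMN 2 and NMN 3 lay below every Vehicle tumor and NMN 4 above every one, and the log2 fold change was -0.11 ± 0.11 (adjusted p = 0.944). Both anchor genes exceeded SDHA and SDHB in 8 of 8 tumors, by 1.06 to 1.77 times over all pairs. Fumarase (FH) averaged 110.1 ± 14.1 TPM with NMN and 115 ± 8.88 TPM with Vehicle, and the mitochondrial malate dehydrogenase gene MDH2 153 ± 11.1 and 155 ± 8.83 TPM.

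Of the 6 shuttle genes, 2 were higher and 4 lower on average (median log2 fold change -0.078). GOT2, the mitochondrial aspartate aminotransferase that makes aspartate for export to the cytosol, lies on chromosome 16, 58707131 to 58734357 on the minus strand. It was at 156, 143, 149 and 175 TPM in NMN 1 to NMN 4, against 183, 183, 182 and 183 TPM in Vehicle 1 to Vehicle 4. Every NMN tumor was below every Vehicle tumor, with NMN 4 nearest to them, and the SD was 13.99 TPM in the NMN group and 0.372 TPM in the Vehicle group. The log2 fold change was -0.23 ± 0.09 (95% interval -0.43 to -0.04, p = 0.0205 and adjusted p = 0.576 by limma, p = 0.0286 by exact permutation). After median-of-ratios scaling GOT2 was at 148 to 159 with NMN and 171 to 198 with Vehicle. The groups still did not overlap on that scale, against 2.39% of all tested genes higher and 1.92% lower, but the SD of the Vehicle group was 12.2, so the near identity of the 4 Vehicle values belongs to the TPM scale.

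The GOT2 promoter is shown because this is one of the genes whose groups did not overlap in both scalings. The stretch runs from 250 to 42 bases upstream of the RefSeq start (GRCh38.p14, chr16:58734358-58734566, minus strand, written 5′ to 3′) and leaves off the bases that GENCODE counts as exon. Capitals mark ACGTG, the core letters bound by HIF factors, at 54 to 50 bases upstream.
GOT2: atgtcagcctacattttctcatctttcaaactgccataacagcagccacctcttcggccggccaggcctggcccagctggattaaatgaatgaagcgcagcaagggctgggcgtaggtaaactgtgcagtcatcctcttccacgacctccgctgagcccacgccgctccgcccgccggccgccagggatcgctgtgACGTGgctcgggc
These letters, on either strand, are in 18.5% of all 35116 promoters of the same length, so their presence is a description only.

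GOT1, the cytosolic aminotransferase of the shuttle, was at 41.6, 36.9, 40.6 and 43.8 TPM in NMN 1 to NMN 4, against 42.95, 46.0, 40.4 and 42.4 TPM in Vehicle 1 to Vehicle 4. These ranges overlapped, and the log2 fold change was -0.08 ± 0.10 (adjusted p = 0.957). MDH1, the cytosolic malate dehydrogenase, was at 221, 225, 218 and 258 TPM in NMN 1 to NMN 4, against 227, 195, 206 and 204 TPM in Vehicle 1 to Vehicle 4. Vehicle 1 lay among the NMN values and the other 3 Vehicle tumors below them, and the log2 fold change was 0.15 ± 0.09 (adjusted p = 0.860). GPD2, the mitochondrial enzyme of the glycerol phosphate shuttle, was at 13.9, 12.99, 13.96 and 15.9 TPM in NMN 1 to NMN 4, against 11.4, 10.1, 11.1 and 14.2 TPM in Vehicle 1 to Vehicle 4. Only Vehicle 4 reached the NMN range, and the log2 fold change was 0.26 ± 0.14 (adjusted p = 0.805 by limma, p = 0.114 by exact permutation). The carriers complete the malate-aspartate shuttle. SLC25A11, which exchanges malate for 2-oxoglutarate, averaged 54.0 ± 4.82 TPM with NMN and 58.0 ± 4.49 TPM with Vehicle. SLC25A13, which exports aspartate for glutamate, averaged 11.9 ± 2.81 TPM with NMN and 12.6 ± 2.46 TPM with Vehicle.

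GLUD1, glutamate dehydrogenase, turns glutamate into 2-oxoglutarate and had the largest fold change of the set. It lies on chromosome 10, 87050486 to 87094866 on the minus strand. It was at 2.49, 2.77, 1.95 and 4.04 TPM in NMN 1 to NMN 4, against 4.23, 5.09, 6.12 and 6.30 TPM in Vehicle 1 to Vehicle 4. Every NMN tumor was below every Vehicle tumor, and NMN 4 lay close under Vehicle 1. The mean was 2.81 ± 0.886 TPM with NMN and 5.44 ± 0.964 TPM with Vehicle, a ratio of 0.517. On the log2(TPM + 1) scale, which understates changes of genes at such levels, the log2 fold change was -0.77 ± 0.20 (95% interval -1.20 to -0.34, p = 0.0022 and adjusted p = 0.305 by limma, p = 0.0286 by exact permutation). The log2 fold change was -0.96 when the pseudocount was 0.1 and -0.42 when it was 5.

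GLUD1 is the second lowest of the 36 genes by level, and 27.5% of the 50-base stretches of its transcripts also occur in transcripts of other genes, 25.8% in GLUD2. GLUD2 was at 0.06, 0.06, 0 and 0.32 TPM in NMN 1 to NMN 4, against 0.21, 0.13, 0.46 and 0.05 TPM in Vehicle 1 to Vehicle 4, under the filter for the test. How the authors' counting split reads between these copies is not given, so the value of GLUD1 is uncertain. In NMN 4 the summed muscle and fibroblast markers lay within the Vehicle range (17 of 18 tested muscle genes did, and MYH4 lay below it), and GLUD1 and GOT2 lay below their own Vehicle ranges. In NMN 1 to NMN 3 both marker sums were below those of every other tumor, and GLUD1 and GOT2 were also lowest there. The part of tissue composition in either result was not tested. Shared stretches made up 20% of SDHA, 16.4% of SDHD, 14.7% of CS and 12.9% of SUCLG2, and at most 7.1% of each of the other members.

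The GLUD1 promoter is shown for the same reason as that of GOT2. The stretch runs from 250 to 24 bases upstream of the RefSeq start (GRCh38.p14, chr10:87094867-87095093, minus strand, 5′ to 3′). Capitals mark a match to the NRF1 motif, which is GCGC, any base and then TGCGC. NRF1 is a factor known for activating nuclear genes of mitochondrial proteins, and the match lies at 208 to 199 bases upstream.
GLUD1: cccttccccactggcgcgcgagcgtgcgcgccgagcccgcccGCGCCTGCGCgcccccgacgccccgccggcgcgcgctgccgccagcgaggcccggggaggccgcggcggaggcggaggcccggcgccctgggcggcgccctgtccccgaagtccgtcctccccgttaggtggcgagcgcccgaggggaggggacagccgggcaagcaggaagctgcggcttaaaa
The full 250 bases hold 80.4% G and C, and those of GOT2 62.8%.

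**Figure D3:**
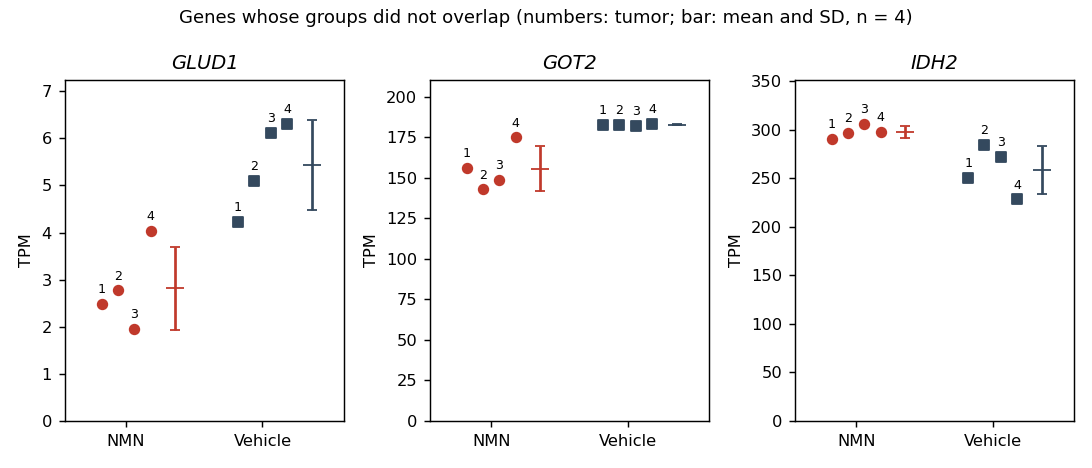
TPM of GLUD1, GOT2 and IDH2 in each NMN tumor (red circles) and each Vehicle tumor (dark squares), with the tumor number above each point and the mean and SD of 4 tumors beside them. GLUD1 and GOT2 are lower and IDH2 higher in every NMN tumor than in any Vehicle tumor on the TPM scale, and no gene passed after adjustment.

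The other 3 genes of side entry and export lead malate to pyruvate or citrate to the cytosol. ME3, a mitochondrial NADP-dependent malic enzyme, was at 3.98, 5.35, 5.55 and 6.2 TPM in NMN 1 to NMN 4, against 8.13, 5.62, 7.14 and 5.19 TPM in Vehicle 1 to Vehicle 4. The ranges overlapped, and the log2 fold change was -0.26 ± 0.18 (adjusted p = 0.886). ME2, the mitochondrial NAD-linked malic enzyme, was at 1.70, 1.72, 1.95 and 2.19 TPM in NMN 1 to NMN 4, against 1.31, 1.40, 1.81 and 1.73 TPM in Vehicle 1 to Vehicle 4. These ranges overlapped too, and the log2 fold change was 0.18 ± 0.16 (adjusted p = 0.925). SLC25A1, which exports citrate, averaged 79.5 ± 2.01 TPM with NMN and 76.7 ± 1.46 TPM with Vehicle. Its coefficient of variation over the 8 tumors was the lowest of the 36 genes on the TPM scale (2.82%), but after median-of-ratios scaling it was 5.71%, and DLST was lowest at 3.79%.

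Within a tumor, the ratio of a pair of genes does not depend on how the library was scaled. Of 8 such ratios none passed an exact two-sided permutation test after Benjamini-Hochberg adjustment over the 8, and the groups overlapped in each. The smallest p that this test can give is 0.0286, so a single ratio could not have passed the adjustment by itself. The adjusted values therefore cannot decide whether any single ratio differed. The log2 ratio of GOT1 over GOT2, cytosolic over mitochondrial aminotransferase, was -1.93 ± 0.05 with NMN and -2.09 ± 0.08 with Vehicle (exact p = 0.0571, adjusted p = 0.229). It was higher in NMN 1, NMN 2 and NMN 3 than in every Vehicle tumor, and NMN 4 lay just below Vehicle 2. The log2 ratio of ME2 over ME3 was -1.47 ± 0.17 with NMN and -2.05 ± 0.43 with Vehicle (exact p = 0.0571, adjusted p = 0.229). The log2 ratio of MDH1 over MDH2 was 0.59 ± 0.04 with NMN and 0.42 ± 0.17 with Vehicle (exact p = 0.143, adjusted p = 0.286), and MDH1 exceeded MDH2 in 8 of 8 tumors. For SUCLG2 over SUCLA2 the difference of the mean log2 ratios was 0.23, for IDH1 over IDH2 -0.25, for PC over PDHA1 -0.06 and for MPC1 over MPC2 0.01, with adjusted p from 0.503 to 0.914 by exact permutation.

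Genes around the cycle did not pass either. Of 6 tested pyruvate dehydrogenase kinases and phosphatases, which switch the complex off and on, 2 were higher and 4 lower on average (median log2 fold change -0.02). The kinase gene PDK1, a known target of HIF, was at 24.0, 31.9, 28.1 and 12.65 TPM in NMN 1 to NMN 4, against 11.5, 16.2, 15.7 and 12.15 TPM in Vehicle 1 to Vehicle 4. The first 3 NMN tumors lay above every Vehicle tumor and NMN 4 within their range, and the log2 fold change was 0.70 ± 0.24 (adjusted p = 0.519 by limma). The log2 ratio of PDK1 over its substrate gene PDHA1 was -1.32 ± 0.74 with NMN and -2.14 ± 0.36 with Vehicle (exact p = 0.114, adjusted p = 0.286). The kinases PDK2 and PDK3 had log2 fold changes of -0.27 ± 0.17 and 0.25 ± 0.19, and PDPR, the regulatory subunit of the phosphatase, one of -0.22 ± 0.16 (adjusted p from 0.860 to 0.903).

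Of 10 genes that attach lipoate or assemble iron-sulfur clusters and complex II, 4 were higher and 6 lower on average (median log2 fold change -0.043). The lipoyltransferase genes LIPT1 and LIPT2 stood at -0.12 ± 0.15 and 0.14 ± 0.19, and the complex II assembly factor genes SDHAF2 and SDHAF3 at -0.07 ± 0.11 and 0.08 ± 0.14, with adjusted p from 0.957 upward. Of 21 tested genes of the cycle, of side entry and of the shuttles that are outside the set, 9 were higher and 12 lower on average (median log2 fold change -0.025). ME1, the cytosolic malic enzyme, averaged 79.9 ± 17.6 TPM with NMN and 98.6 ± 3.44 TPM with Vehicle. NMN 4 stood at 104.9 TPM, and the log2 fold change was -0.32 ± 0.13 (adjusted p = 0.660). LDHA, which regenerates NAD+ in the cytosol by reducing pyruvate to lactate, averaged 793 ± 243 TPM with NMN and 569.7 ± 112 TPM with Vehicle, a log2 fold change of 0.44 ± 0.22 (adjusted p = 0.775). The mitochondrial glutamate carrier SLC25A22 was at a log2 fold change of -0.29 ± 0.17 (adjusted p = 0.836), and the glutamine transporter SLC1A5 at -0.22 ± 0.14 (adjusted p = 0.860).

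The 4 NMN tumors were not alike. NMN 4 was the highest NMN tumor in 32 of 36 members (88.9%), compared with 51.9% of all tested genes, and the highest of the 8 tumors in 16 (44.4%, compared with 24.6%). In 19 members it exceeded every Vehicle tumor, in 15 it fell among them, and in GOT2 and GLUD1 it was below all of them. Part of this follows the scale of the library, since the median tested gene of NMN 4 stood 0.126 above the mean of the 8 tumors on the log2 scale, and NMN 2 and Vehicle 2 both at -0.109. After median-of-ratios scaling NMN 4 was the highest NMN tumor in 15 members (41.7%, compared with 27%), and exceeded every Vehicle tumor in 7, with 24 members among the Vehicle values and 5 below.

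**Figure D4:**
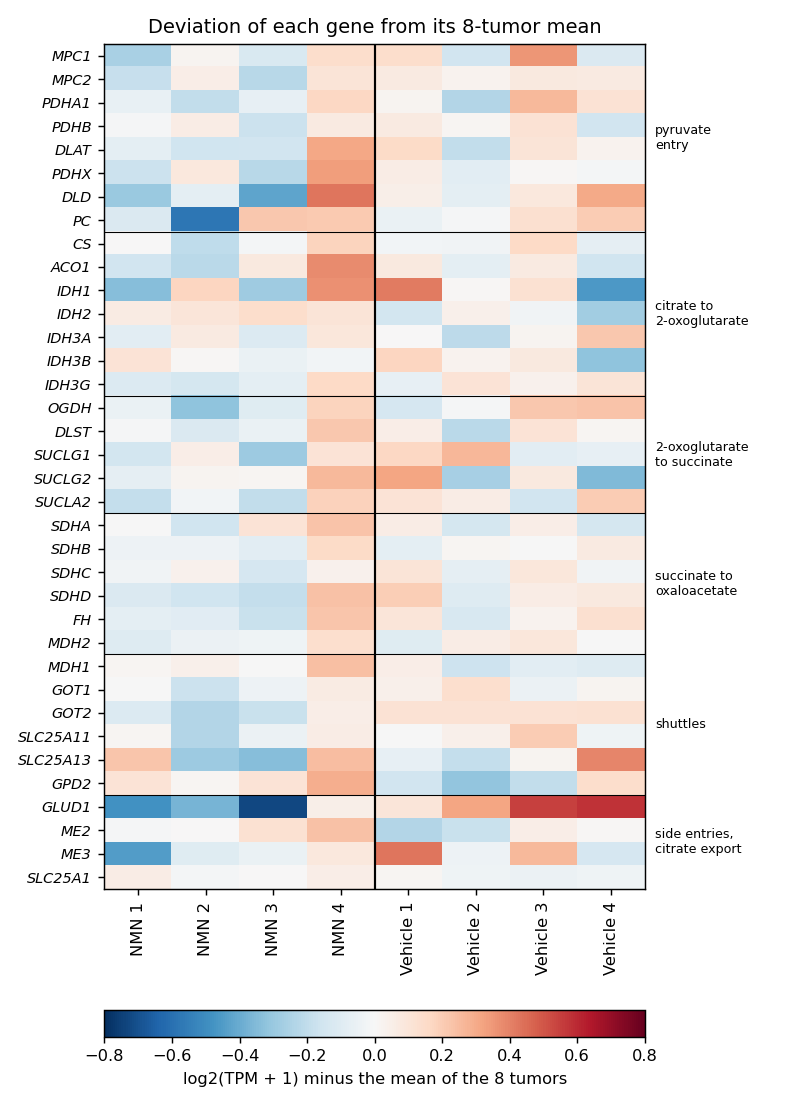
Log2(TPM + 1) of each gene in each tumor minus the mean of the 8 tumors (blue lower, red higher), with NMN tumors on the left and Vehicle tumors on the right, ordered by step. NMN 4 is the highest NMN tumor in 32 of 36 genes, and GLUD1 holds the widest spread.

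A score, the mean deviation of the 36 genes from their 8-tumor means on the log2(TPM + 1) scale, was -0.088, -0.09, -0.105 and 0.176 in NMN 1 to NMN 4, against 0.056, -0.046, 0.08 and 0.015 in Vehicle 1 to Vehicle 4. The first 3 NMN tumors lay below every Vehicle tumor and NMN 4 above. After scaling it was -0.094, 0.026, -0.104 and 0.045 in NMN 1 to NMN 4, against 0.014, 0.072, -0.006 and 0.047, and NMN 2 and NMN 4 lay within the Vehicle range. Set beside it as a description, the same score over 20 glycolysis genes was 0.296, 0.344, 0.466 and -0.231 in NMN 1 to NMN 4, against -0.372, -0.183, -0.087 and -0.232 in Vehicle 1 to Vehicle 4. Over 22 hypoxia response genes, PDK1 among them, it was 0.3, 0.69, 0.692 and -0.303, against -0.476, -0.168, -0.253 and -0.482. In both lists NMN 1 to NMN 3 stood above all other tumors, and the difference between these lists and the TCA cycle set was not tested. HK2, PFKFB4, ALDOC and SLC2A1 are in both lists, so the 2 scores are not independent.

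**Figure D5:**
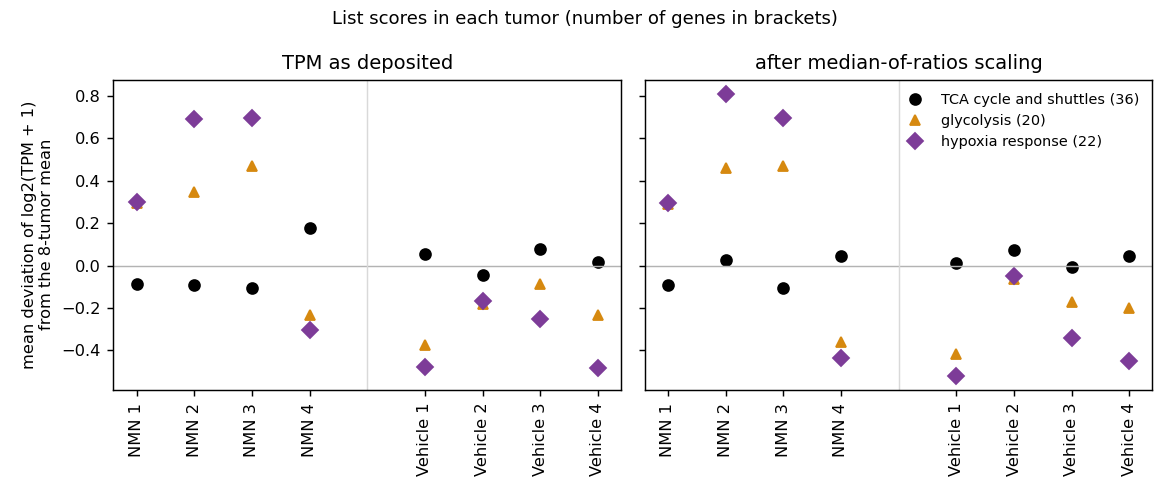
Mean deviation of log2(TPM + 1) from the 8-tumor mean, for the 36 TCA cycle and shuttle genes (black), 20 glycolysis genes (orange) and 22 hypoxia response genes (purple), in each NMN tumor and then each Vehicle tumor, as deposited (left panel) and after median-of-ratios scaling (right panel). The black points stay between -0.105 and 0.176, and the 2 other lists are high in NMN 1 to NMN 3 and low in NMN 4 and the Vehicle tumors. HK2, PFKFB4, ALDOC and SLC2A1 are in both of these lists.

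Without NMN 4 the members still gave 0 calls after adjustment over all genes, where 54 of 13358 tested genes passed (0.404%). Of the 36 genes 8 were then higher and 28 lower on average (median log2 fold change -0.125), whereas the median of all tested genes was -0.035. The groups did not overlap in IDH2, higher, and in IDH3G, DLD, SDHD, GOT2 and GLUD1, lower, compared with 3.84% of all tested genes higher and 6.15% lower. SDHD, GOT2, DLD and GLUD1 had an unadjusted p under 0.05, all lower, where 4.88% of all tested genes did, 4.67% being higher and 9.55% in either direction. The log2 fold change was -0.91 for GLUD1 (adjusted p = 0.0832) and -0.29 for GOT2 (adjusted p = 0.254).

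Promoters of the set were searched for 5 motifs on both strands, over the 250 bases upstream of the RefSeq start. Of the 36 genes 34 matched the table, with 45 promoters, and OGDH and SDHC did not. The NRF1 motif was in 8 of 45 promoters (17.8%), compared with 5.07% of all 35116 promoters and 8.28% of the 15586 promoters of tested genes. The 8 genes were GLUD1, IDH3A, IDH3G, MPC2, SDHA, SDHD, SLC25A11 and SUCLA2. The median share of G and C was 67.2% in promoters of the set, 58% in all promoters and 64% in those of tested genes, and the part of base composition in the count was not tested. SDHA is shown because its promoter holds 4 matches, in repeated units, and SDHD and MPC2 for comparison. Capitals mark the match, with 10 bases on either side where the 250 bases reach (5′ to 3′, GRCh38.p14).
SDHA, chr5:218144-218173, plus strand: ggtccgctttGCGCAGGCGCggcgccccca
SDHA, chr5:218193-218222, plus strand: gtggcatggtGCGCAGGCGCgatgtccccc
SDHA, chr5:218242-218271, plus strand: ccggcgtggtGCGCAGGCGCggtatccccc
SDHA, chr5:218291-218319, plus strand: ccggtgtggtGCGCAGGCGCagtctgcgc
SDHD, chr11:112086753-112086782, plus strand: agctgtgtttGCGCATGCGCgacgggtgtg
MPC2, chr1:167936152-167936181, minus strand: agctcggcctGCGCAAGCGCgctgccagca
In GENCODE 29 the first 2 SDHA windows lie upstream of the gene and the other 2 in an annotated exon, the SDHD window spans the start of the gene, and the MPC2 window lies in an intron of the annotated gene, upstream of the RefSeq start.

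TCAAGGTCA, bound by estrogen-related receptors, was in 0 of the 45 promoters, compared with 0.148% of promoters of tested genes. ACGTG was in 22.2%, compared with 21.9%, and the E-box CACGTG, which holds it, in 8.89%, compared with 8.11%. CCAAT was in 20 of 45 promoters (44.4%), compared with 32.9% of promoters of tested genes, a difference that was not tested.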

How the data were processed

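RNA was extracted from whole tumors and libraries were made from RNA with an integrity number above 8.5, with ribosomal depletion and oligo(dT) selection both named, per the labels' protocols. The authors deposited TPM per gene for the 8 tumors in 1 table, with the unit per the file headers. RSEM 1.2.8, HISAT2 2.1.0, Bowtie2 2.2.5 and the build GRCh38.p13 appear in the submitters' processing notes, with no roles. The table lists 18164 genes, 183 of them at 0 in all tumors. TPM keeps no read depth, so counting error is unknown.

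Genes with at least 1 TPM in at least 4 tumors were tested (13358). The test was limma 3.58.1 (R 4.3.3) on log2(TPM + 1), its variance modelled as a trend of the mean, two-sided, with group as the only term and Benjamini-Hochberg adjustment at 0.05 over all tested genes. The fit was tested on simulated data whose planted changes were larger than those of most members. That check does not cover changes as small as theirs. Fold changes are NMN over Vehicle. Single values and ratios had an exact two-sided permutation test (SciPy 1.17.1). Lists are described by counts and medians, with no list test. Fold changes on this scale understate changes of low genes.

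The members, lists and tests were chosen with earlier results of these data known. Every member is named. Values per tumor are given for the 8 members with the smallest p, for those whose groups did not overlap and for the pairs behind the ratios with the smallest p (a tie), as well as for SDHD, chosen after its values were seen. Of genes outside the set, the 4 with the smallest p per list are named, and GLUD2. The shared stretches are 50-base runs of GENCODE 29 transcripts. Promoters are from RefSeq, GRCh38.p14. The 18 alternatives were 2 other pseudocounts (0.1 and 5), each tumor left out, the replicate number as a block, weights per library, scaling by median of ratios, quantile normalization, robust variances, variances without the trend, no filter, and 5 TPM as the filter. The places of NMN 4 under median-of-ratios scaling were added after the data were seen, as were the outlying values and the groups' overlap under that scaling and without NMN 4.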

Additional observations from a re-analysis of the deposited data

Results flagged for a closer look

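Of 88 groups of 4 tumors examined for a value far from the other 3 (beyond Dixon's 95% critical value), 4 held one, and chance flags about 1 in 20 groups. SDHD was at 278.31 TPM in NMN 4, with the other NMN tumors at 206.62 to 217.86 TPM. MDH1 was at 258.21 TPM in NMN 4, with the other NMN tumors at 217.84 to 224.61 TPM. DLAT was at 46.58 TPM in NMN 4, with the other NMN tumors at 33.39 to 35.42 TPM. MPC2 was at 125.87 TPM in Vehicle 2, with the other Vehicle tumors at 129.43 to 129.85 TPM. After median-of-ratios scaling none of these 4 was beyond the critical value: SDHD in NMN 4 was at 252.58 with the other NMN tumors at 206.06 to 229.61, MDH1 in NMN 4 was below NMN 2, DLAT in NMN 4 was at 42.27 with the others at 33.46 to 36.2, and MPC2 in Vehicle 2 was the highest Vehicle value. On that scale 7 other groups held such a value, in IDH3A, DLD, PDHX, GPD2 and SLC25A13 among Vehicle tumors and in PDHA1 and ME3 among NMN tumors.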

How the results depend on the processing

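The number of members called was 0 under all 18 alternatives. The number of genes called over the table was 0 in the reported fit, 54 with library weights, 2 with the replicate block, and 0 to 54 with 1 tumor left out (54 without NMN 4 and 1 without Vehicle 3). Members at an unadjusted p under 0.05 numbered 3 in the reported fit, 6 with library weights, and 1 to 4 with 1 tumor left out (1 without NMN 3 and 4 without NMN 4). They numbered 2 with median-of-ratios scaling, without the variance trend, with the replicate block and with the filter at 5 TPM. In the first 3 of these settings the unadjusted p of IDH2 by limma was 0.0946, 0.0872 and 0.0529. The members' median log2 fold change ran from -0.125 without NMN 4 to -0.012 without NMN 3 or Vehicle 3, and was -0.081 with library weights. Under median-of-ratios scaling, chosen after seeing the data, NMN 4 was the highest NMN tumor in 15 members instead of 32 and above the Vehicle range in 7 instead of 19, and 7 groups of 4 tumors instead of 4 held a value far from the other 3. Single members changed sign in 6 of 358 values with all tumors kept and in 32 of 288 with 1 left out, the second in 13 genes, and none of these values was called. The fold change of GLUD1 moved by over 1 SD with a pseudocount of 5. The labels number the tumors 1 to 4 in both groups, with correlations of same-numbered tumors of 0.026, 0.001, -0.032 and -0.123. These show no pairing in the values, but they cannot exclude a pairing in the design. With the replicate block 2 genes and 0 members passed. A filter at 5 TPM left 34 members and removed ME2 and GLUD1, the member with the smallest p in the reported fit. The 2 members at an unadjusted p under 0.05 by limma there were IDH2 and GOT2. With no read depth, differences within the intervals given could not be told from none.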
